A study of Mus musculus with 6 samples.

Results

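The 46 genes described here encode the enzymes that make, recycle and use glutathione, the thioredoxin and peroxiredoxin system, the superoxide dismutases, catalase and the quinone reductases, together with the cystine transporter that feeds glutathione synthesis. They are a list of gene symbols drawn up by function, with earlier results of these data known, and 46 of 46 were found among the 52459 symbols of the deposited count table. RNA was sequenced from mouse C57BL/6 bone marrow derived macrophages grown with GM-CSF, a growth factor for myeloid cells, in 3 libraries that received piceatannol at day 7 of culture and were left overnight and 3 control libraries that received vehicle at the same time. Piceatannol is a plant stilbene related to resveratrol. The labels used here give no dose, no name for the vehicle and no age for the animals. Nothing in them tells whether replicate libraries stem from different mice or dishes, and p-values therefore reflect only the library-to-library spread, which may be technical.

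Glutathione is a cysteine-containing tripeptide that donates electrons to peroxidases and is joined to reactive compounds by glutathione transferases. Its supply depends on cystine import, on the rate-limiting ligation of glutamate to cysteine and on reduction of the oxidised form. Thioredoxins are small proteins that reduce disulfides in other proteins, peroxiredoxins among them, and are themselves kept reduced by selenocysteine-containing reductases. Many of these genes are known targets of NRF2, a transcription factor that binds antioxidant response elements when cells meet oxidants or electrophiles, and macrophages use the same systems to withstand the superoxide they make.

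Library totals lay between 33276569 and 49283203 counts with piceatannol and between 43586270 and 58697084 counts in control. Values are given as CPM, counts scaled to a common library total, for comparing libraries, and as FPKM, the authors' values per gene length, for comparing genes. Among macrophage markers fixed for checking the labelled cell type, Lyz2, Csf1r, Itgam and Adgre1 were present in every library, and their summed level over 9 markers was 13331 to 14798 CPM with piceatannol and 18788 to 22786 CPM in control. Of those 9, 7 fell and 2, Cd68 and Cd14, rose. Mitochondrially encoded genes took 1.87% to 2.65% of the counts with piceatannol and 0.777% to 0.866% in control. Markers of fibroblasts and stromal cells summed to 550.2 to 612 CPM with piceatannol and 2508 to 2800 CPM in control, with 7 of 9 lower and Col1a2 and Col1a1 leading the sum. Neutrophil markers summed to 34.9 to 42.8 CPM with piceatannol and 259 to 604 CPM in control. Dendritic cell markers summed to 818 to 1017 CPM with piceatannol and 1585 to 1714 CPM in control. Mast cell and basophil markers stayed at or below 18.6 CPM in sum, erythroid markers at or below 2.07 CPM and lymphocyte markers at or below 3.72 CPM, in every library. Endothelial markers, led by Vwf and Kdr, summed to 413 to 493 CPM with piceatannol and 115 to 127 CPM in control. In bulk RNA, fewer cells of a type and less RNA per cell cannot be told apart.

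With piceatannol, the genes of glutathione synthesis and cystine import, cytosolic thioredoxin and its reductase (Txn1, Txnrd1), sulfiredoxin (Srxn1) and catalase (Cat) rose. The 4 glutaredoxin genes, mitochondrial thioredoxin and its reductase (Txn2, Txnrd2), Gpx1 and the mitochondrial and secreted superoxide dismutases (Sod2, Sod3) fell. Of the 46 genes, 20 rose, 20 fell and 6 did not pass the test (edgeR's quasi-likelihood test, Benjamini-Hochberg adjusted p under 0.05 over 15380 genes). The called share was 87%, against 77% of all genes tested. For rises alone it was 43.5% against 38.8% of all genes, and for falls alone 43.5% against 38.3%, shares near the background. At a change of at least 2-fold, 15 genes rose and 9 fell, or 32.6% and 19.6%, where the background was 17.5% for rises, 16.6% for falls and 34% for either. The median log2 fold change was -0.10 over the 46 genes and 0.01 over all genes tested. The median size, taken without sign, was 1.01 over the 46 genes and 0.68 over all genes tested. Gsta4 entered the test only through its counts with piceatannol. Without it 19 of 45 genes rose and 20 fell, and at 2-fold or more 14 rose (31.1%) and 9 fell. The values of the groups did not overlap for 43 of the 46 genes, against 79% of all genes. That 79% is the background wherever the groups of a gene are said below not to overlap.

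**Figure D1:**
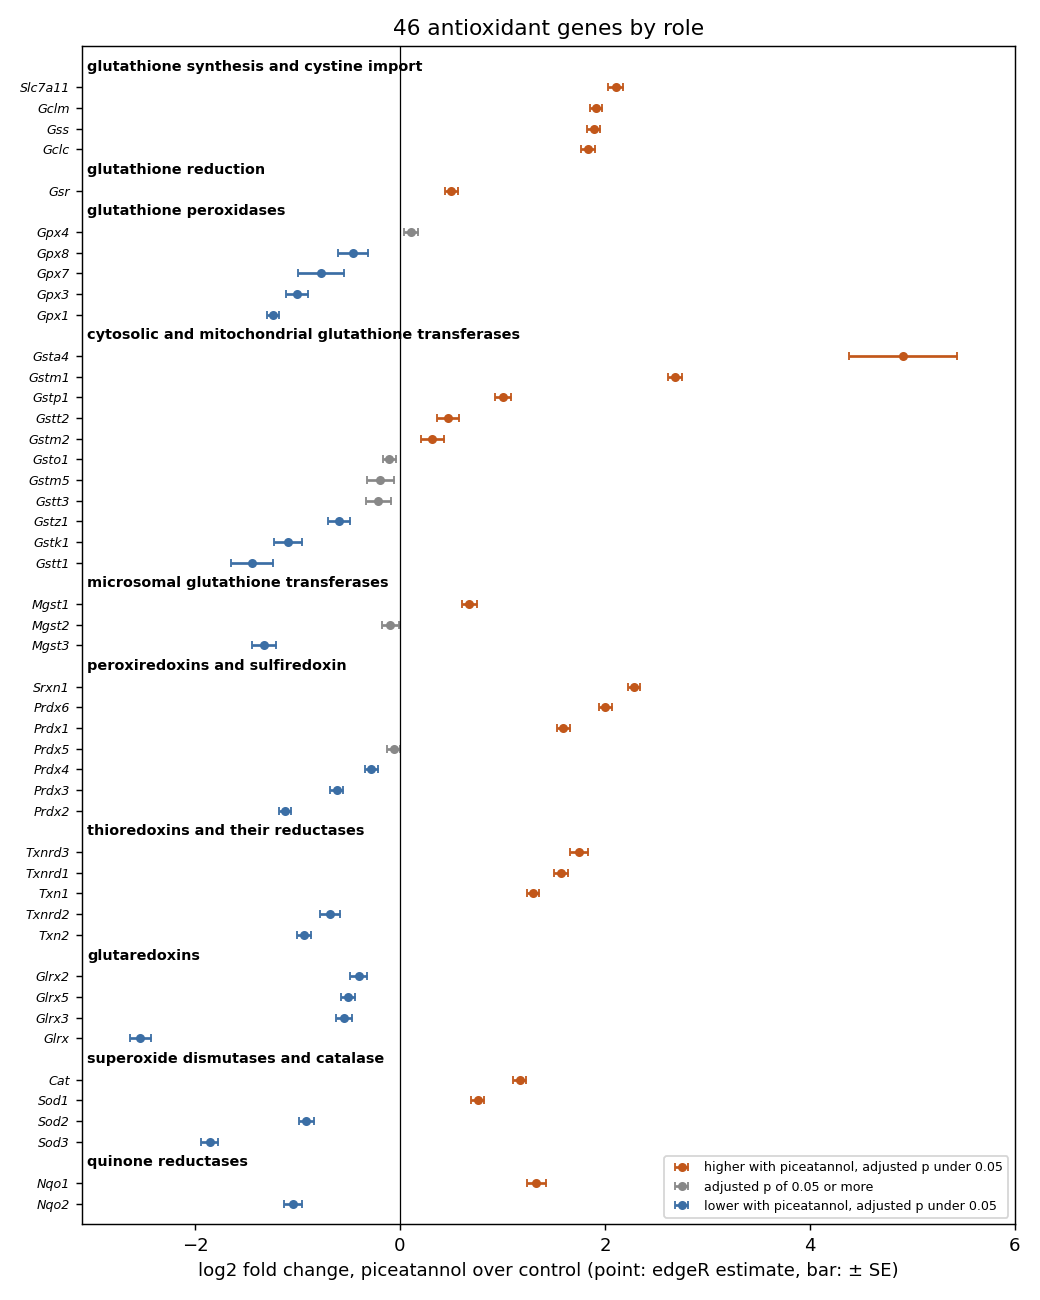
Log2 fold change of each gene, piceatannol over control (horizontal axis), with genes grouped by role down the page. Points are edgeR estimates and bars ± SE. The 4 genes of glutathione synthesis and cystine import sit between 1.84 and 2.11, the 4 glutaredoxins between -2.53 and -0.40.

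The short sequence TGACNNNGC, the core of the antioxidant response element that NRF2 binds, was searched on both strands of promoter windows from 250 bases before to 50 bases after each annotated start (RefSeq, GRCm38.p6). Windows matched 40 of the 46 genes, and the unmatched ones were Gclc, Gsr, Gsta4, Gstt2, Prdx6 and Sod3. The motif lay in 7 of the 40 genes, or 17.5%, against 14% of the 27025 genes with a window. It was found in 6 of 15 genes that rose, in 0 of 19 that fell and in 1 of 6 that did not pass. Of the unmatched genes, Sod3 fell and the others rose. The share with the motif among all genes that rose or fell was not computed, so this split has no background. These 7 stretches of 33 bases are shown because they are every match found among the 40 genes. For Txnrd1 1 of its 3 windows holds the motif, and Mgst1 likewise has a window without it. Each is written 5′ to 3′ on the strand that reads TGACNNNGC, with the motif in capitals.
Gclm (chr3:122245411-122245443, minus strand): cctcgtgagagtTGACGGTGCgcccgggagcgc
Txnrd1 (chr10:82859102-82859134, minus strand): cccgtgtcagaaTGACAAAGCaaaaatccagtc
Prdx1 (chr4:116685454-116685486, minus strand): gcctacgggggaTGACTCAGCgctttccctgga
Srxn1 (chr2:152105540-152105572, minus strand): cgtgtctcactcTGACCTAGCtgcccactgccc
Mgst1 (chr6:138140459-138140491, minus strand): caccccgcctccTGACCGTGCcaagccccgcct
Sod1 (chr16:90220694-90220726, minus strand): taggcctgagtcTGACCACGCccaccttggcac
Gstm5 (chr3:107895800-107895832, plus strand): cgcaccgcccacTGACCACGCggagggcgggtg

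Among the 7, the Prdx1 match alone overlaps a match to TGANTCA, the form bound by AP-1 factors. The whole Prdx1 window is given on the gene's own strand (chr4:116685349-116685648, plus strand), where the capitals are the reverse complement of the motif.
Prdx1 promoter: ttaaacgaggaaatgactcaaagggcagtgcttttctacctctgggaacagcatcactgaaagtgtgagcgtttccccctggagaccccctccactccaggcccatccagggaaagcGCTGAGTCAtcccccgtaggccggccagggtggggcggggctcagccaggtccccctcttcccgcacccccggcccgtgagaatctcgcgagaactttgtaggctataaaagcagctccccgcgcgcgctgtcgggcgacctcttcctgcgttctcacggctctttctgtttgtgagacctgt
A match describes letters in a window of this length, not binding, and a gene without one may hold it elsewhere.

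The genes of glutathione synthesis rose together, 4 of 4 and each by more than 3.5-fold. By comparison, 38.8% of all genes tested rose, and 17.5% rose by at least 2-fold. Slc7a11, the cystine transporter that limits cysteine supply in many cells (chromosome 3, 49892526 to 50443614), stood at 659, 729 and 625 CPM in piceatannol libraries, against 162, 145 and 160.4 CPM in control libraries. Gclc encodes the catalytic subunit of glutamate-cysteine ligase, the rate-limiting enzyme (chromosome 9, 77754535 to 77794485), and stood at 172, 151 and 161 CPM in piceatannol libraries, against 46.2, 43.5 and 45.8 CPM in control libraries. The longest Slc7a11 transcript holds a stretch of 373 bases up to 96.5% like alpha-tubulin genes and pseudogenes, and the 3 tubulin genes held 623 to 3262 counts per library with piceatannol and 2955 to 3926 in control. Slc7a11 itself held 27767, 24086 and 30532 counts in piceatannol libraries, against 8575, 6368 and 9479 counts in control libraries. For both genes every piceatannol library lay above every control library. The log2 fold change was 2.11 ± 0.07 for Slc7a11 and 1.84 ± 0.06 for Gclc (SE; adjusted p = 4.89e-16 and 1.05e-15, edgeR).

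Gclm, the modifier subunit that makes the ligase more efficient, had 459.7, 476 and 435 CPM in piceatannol libraries, against 123, 121 and 121 CPM in control libraries, a 3.76-fold rise. Gss, glutathione synthetase, had 86.7, 94.1 and 90.6 CPM in piceatannol libraries, against 24.2, 25.6 and 23.5 CPM in control libraries, a 3.71-fold rise (adjusted p = 1.94e-16 for Gclm and 1.08e-15 for Gss, edgeR). So the 2 ligase subunits and the synthetase rose by 3.57-fold to 3.76-fold, a narrow range. Exons of Gss overlap those of Acss2 on the opposite strand, which stood at 47.6, 55 and 53.6 CPM in piceatannol libraries, against 7.95, 8.48 and 8.16 CPM in control libraries. The counting is not stated to use strand, so reads in that overlap cannot be assigned, and the part of Acss2 in the Gss values was not tested. Per gene length, Gclm was the more abundant ligase subunit, with 71.5 ± 3.46 FPKM with piceatannol and 19.3 ± 0.194 FPKM in control, where Gclc had 42.2 ± 2.58 and 12 ± 0.359 FPKM (SD, n = 3 each). Gsr, the reductase that regenerates glutathione from its disulfide, rose less, by 1.41-fold, with 138, 156 and 139 CPM in piceatannol libraries, against 102, 105 and 99.2 CPM in control libraries.

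**Figure D2:**
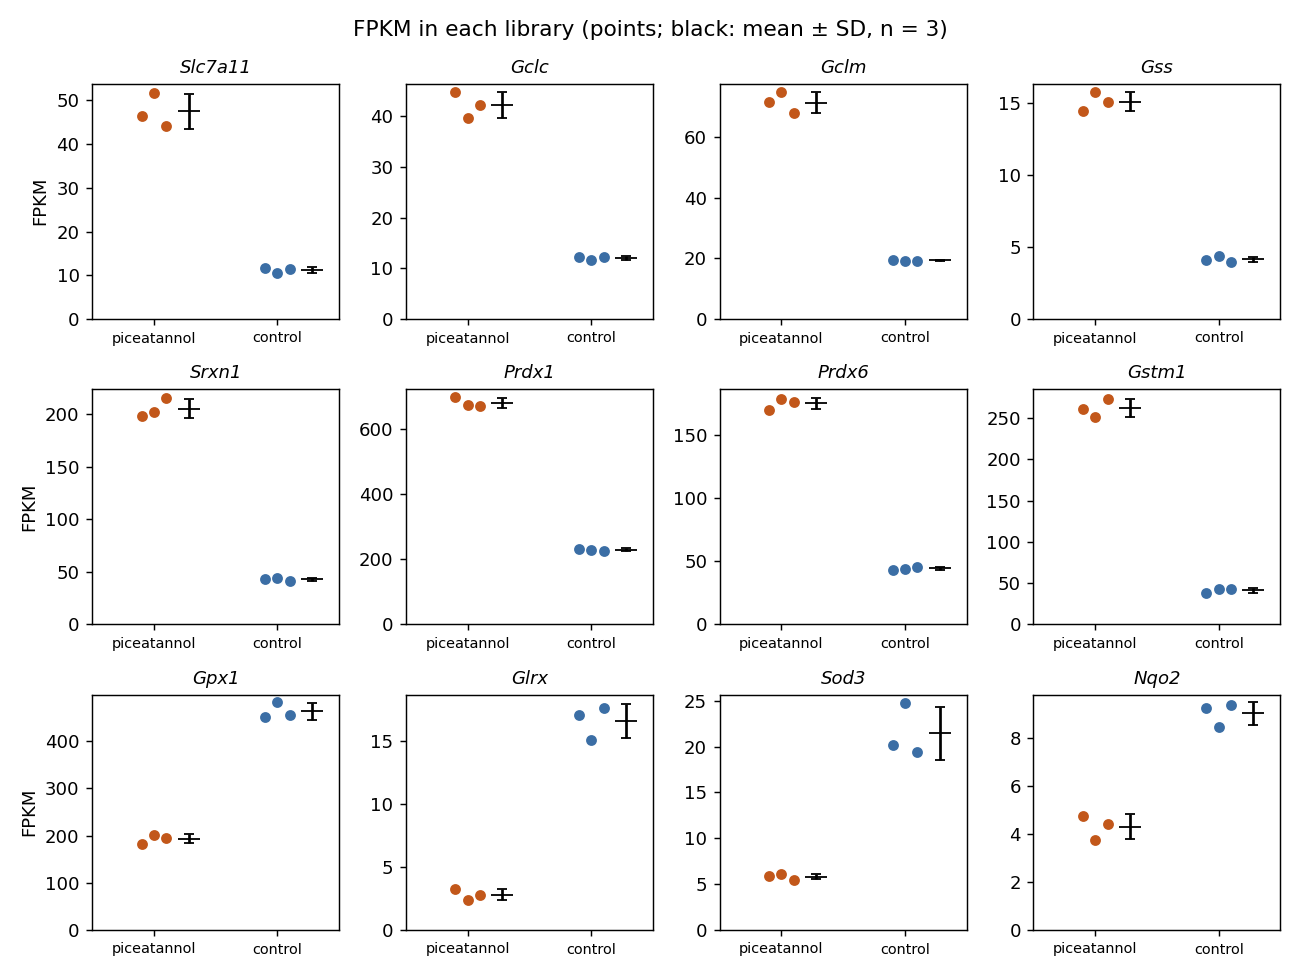
FPKM of 12 genes in each library (vertical axis, starting at 0), piceatannol left and control right in each panel; points are libraries and black marks the mean ± SD of 3. In the first 8 panels every piceatannol library lies above every control library, and in Gpx1, Glrx, Sod3 and Nqo2 below.

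None of the 5 glutathione peroxidase genes rose, 4 fell, and the change was largest in the most abundant. Of all genes tested, 38.8% rose and 38.3% fell. Gpx1, the cytosolic and mitochondrial selenoenzyme that reduces hydrogen peroxide (chromosome 9, 108338903 to 108340343), had 269, 294 and 286 CPM in piceatannol libraries, against 650.1, 695 and 659 CPM in control libraries. Its groups did not overlap, and the fall was 2.36-fold (log2 fold change -1.24 ± 0.06, SE; adjusted p = 2.85e-13, edgeR). With piceatannol Gpx1 ranked 8 in FPKM among the 46 genes, at 183, 202 and 195 in the 3 libraries, and in control it ranked 1, at 451, 484 and 456 FPKM.

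Gpx4, the selenoenzyme that reduces lipid hydroperoxides in membranes, did not pass, with 46.8, 48.1 and 51.2 CPM in piceatannol libraries, against 44, 45.5 and 46.1 CPM in control libraries. Its change was estimated at 0.11 ± 0.06 on the log2 scale (SE, with a 95% interval of -0.02 to 0.23 and adjusted p = 0.14, edgeR). Its call depended on the setting, since adjusted p = 0.0307 with upper-quartile factors and 0.0218 with a stricter filter. Gpx4 made up 11.5% to 12.4% of the summed FPKM of the 5 peroxidases with piceatannol and 5% to 5.31% in control. Its copies Gpx4-ps2, 99.7% alike over 733 bases, and AC122253.3 are not among the symbols of the count table. How reads shared with these copies were assigned was not tested.

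The extracellular peroxidase gene Gpx3 fell by 2.01-fold and the endoplasmic reticulum peroxidase genes Gpx7 and Gpx8 by 1.71-fold and 1.38-fold. Gpx3 stood at 11.6, 8.50 and 10.5 CPM in piceatannol libraries, against 19.3, 20.6 and 21.8 CPM in control libraries. Gpx7 was low, with 39, 49 and 58 counts in piceatannol libraries, against 98, 90 and 129 counts in control libraries. Gpx8 stood at 5.91, 4.93 and 4.08 CPM in piceatannol libraries, against 6.91, 7.36 and 6.24 CPM in control libraries. Its call was lost without piceatannol replicate 3, where adjusted p = 0.0551 (edgeR). The summed markers of fibroblasts and stromal cells were 4.47-fold lower in the same libraries, and their part in these falls was not tested.

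The cytosolic and mitochondrial glutathione transferases went both ways, 5 higher, 3 lower and 3 not passed of 11. Of all genes tested, 38.8% were higher and 38.3% lower. Gstm1, a mu-class transferase that conjugates electrophiles (chromosome 3, 108012255 to 108017973), had the largest rise of the 46 genes after Gsta4, with 392, 375 and 409.8 CPM in piceatannol libraries, against 56.2, 63.1 and 63.5 CPM in control libraries. That is a 6.44-fold rise with no overlap (log2 fold change 2.69 ± 0.07, SE; adjusted p = 5.69e-18, edgeR). Its near-identical relative Gstm2-ps1, 97.9% alike over 657 bases, held 24 to 29 counts with piceatannol and 4 to 7 in control. In the summed FPKM of the 14 transferase genes, soluble and microsomal, Gstm1 took 50.2% to 52.8% with piceatannol and 15.3% to 16.4% in control.

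Its neighbours on chromosome 3 did not move alike. Gstm2 had 10.5, 11.3 and 11.1 CPM in piceatannol libraries, against 7.93, 10.2 and 8.46 CPM in control libraries, a 1.24-fold rise whose call was lost without control replicate 1 (adjusted p = 0.109, edgeR) and without control replicate 3 (0.0633). Gstm5 had 4.73, 4.66 and 5.10 CPM in piceatannol libraries, against 5.32, 5.54 and 5.72 CPM in control libraries. It did not pass (log2 fold change -0.19 ± 0.13, SE; 95% interval -0.45 to 0.06). Across this cluster, from 107895821 to 108017973, the values ran from -0.19 through 0.31 to 2.69 on the log2 scale.

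Gsta4, an alpha-class transferase known for conjugating the lipid peroxidation product 4-hydroxynonenal, held 45, 50 and 57 counts in piceatannol libraries, against 4, 2 and 0 counts in control libraries. The ratio of summed counts scaled for library size was 31.8, with an exact binomial 95% interval of 14.3 to 88.1 that covers counting error only. Because it passed the filter on low counts in 3 piceatannol and 0 control libraries, it had to differ, and its values are a description. Its fitted value of 4.91 ± 0.52 on the log2 scale (SE) moved to 5.80 without control replicate 1 and to 4.26 without control replicate 3. It remained among the least abundant of the 46 genes, at 0.973 ± 0.183 FPKM with piceatannol (SD, n = 3).

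Gstp1, the pi-class enzyme, rose 2.01-fold with 46.7, 53.4 and 54.8 CPM in piceatannol libraries, against 25.1, 24.4 and 27.5 CPM in control libraries. Sequence copies Gstp2 and Gstp-ps are up to 98.2% alike, and Gstp-ps held 121 to 168 counts with piceatannol and 60 to 99 in control. Gstp1 itself held 1968, 1766 and 2674 counts in piceatannol libraries, against 1328, 1072 and 1626 counts in control libraries. Gsto1, an omega-class enzyme with glutaredoxin-like chemistry, was the most abundant transferase in control and did not pass, with 190.1, 197 and 181 CPM in piceatannol libraries, against 201, 217 and 193 CPM in control libraries. Its share of the summed transferase FPKM was 17.4% to 19.7% with piceatannol and 37% to 42.1% in control, beside family sums of 497 to 518 FPKM with piceatannol and 249.6 to 264 FPKM in control.

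The 3 theta-class genes among the 46 lie within chromosome 10, 75774115 to 75837424, and differed. Gstt1 fell 2.72-fold, with 1.04, 1.57 and 1.45 CPM in piceatannol libraries, against 2.99, 4.19 and 3.88 CPM in control libraries. It was low, with 44, 52 and 71 counts in piceatannol libraries, against 158, 184 and 229 counts in control libraries. Gstt2 rose 1.39-fold, with 12.9, 11.5 and 14.9 CPM in piceatannol libraries, against 8.76, 9.84 and 9.88 CPM in control libraries. Gstt3, with 7.55, 7.51 and 9.56 CPM in piceatannol libraries, against 8.88, 9.68 and 10 CPM in control libraries, did not pass (log2 fold change -0.21 ± 0.12, SE; 95% interval -0.44 to 0.02), though without piceatannol replicate 3 its adjusted p = 0.0203 (edgeR). Neighbouring theta-class genes thus went down, up and past no threshold.

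The other falls among the soluble transferases were those of Gstk1 and Gstz1. Gstk1, the mitochondrial and peroxisomal kappa-class enzyme, fell 2.13-fold, with 4.13, 3.57 and 3.99 CPM in piceatannol libraries, against 8.08, 7.31 and 9.56 CPM in control libraries. Gstz1, which acts in tyrosine breakdown, fell 1.51-fold, with 6.79, 8.20 and 7.21 CPM in piceatannol libraries, against 11.4, 11.6 and 10.5 CPM in control libraries. Exons of Gstz1 overlap those of Pomt2 on the opposite strand, and those of Gstm5 overlap 4933431E20Rik.

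Of the microsomal transferases, Mgst1 rose, Mgst3 fell and Mgst2 did not pass. Mgst1, a membrane enzyme with transferase and peroxidase activity, had 97.8, 98 and 94.9 CPM in piceatannol libraries, against 59.3, 53.5 and 68.5 CPM in control libraries. Mgst3 had 7.96, 7.60 and 10.8 CPM in piceatannol libraries, against 20.7, 21.5 and 24.3 CPM in control libraries, a 2.51-fold fall. In neither gene did the groups overlap. Mgst2, which can make leukotriene C4, stood at 18, 17.8 and 17.1 CPM in piceatannol libraries, against 18.2, 18.3 and 19.8 CPM in control libraries. It had an estimated change of -0.09 ± 0.08 on the log2 scale (SE, with a 95% interval of -0.25 to 0.07 and adjusted p = 0.313, edgeR).

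In the thioredoxin system the cytosolic genes rose and the mitochondrial ones fell. Txn1, cytosolic thioredoxin (chromosome 4, 57943373 to 57956411), had 664, 634 and 612 CPM in piceatannol libraries, against 259.9, 264 and 252 CPM in control libraries. Txnrd1, its selenocysteine-containing reductase (chromosome 10, 82833951 to 82897712), had 814, 883 and 784 CPM in piceatannol libraries, against 285, 278 and 272 CPM in control libraries. These were rises of 2.46-fold and 2.97-fold, with log2 fold changes of 1.30 ± 0.06 and 1.57 ± 0.06 (SE; adjusted p = 9.08e-14 and 1.14e-14, edgeR). Txn-ps1, a copy 95.8% like Txn1, held 6 to 15 counts with piceatannol and 6 to 7 in control.

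Txn2, mitochondrial thioredoxin, had 79.4, 84.2 and 86.7 CPM in piceatannol libraries, against 148, 176 and 154 CPM in control libraries. Its reductase gene Txnrd2 had 12.5, 10.6 and 14 CPM in piceatannol libraries, against 20, 20.2 and 19.7 CPM in control libraries. Both genes had every piceatannol library below every control library, and the falls were 1.91-fold and 1.60-fold (adjusted p = 1.06e-10 and 2.7e-06, edgeR). Txnrd3, a reductase with an added glutaredoxin domain best known from testis, rose 3.36-fold, with 26.8, 26.2 and 25.3 CPM in piceatannol libraries, against 7.55, 8.16 and 7.58 CPM in control libraries. Per length Txnrd3 took 6.79% to 7.43% of the summed FPKM of the 3 reductases with piceatannol and 5.61% to 6.17% in control. Txnrd1 held 90.1% to 91.4% with piceatannol and 84% to 84.8% in control. Txnrd2 held 1.77% to 2.60% with piceatannol, below Txnrd3, and 9.57% to 9.85% in control, above it.

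Sulfiredoxin and 2 of the 6 peroxiredoxins rose, and 3 peroxiredoxins fell, where 38.8% of all genes tested rose and 38.3% fell. Srxn1, which restores peroxiredoxins that have been over-oxidised by peroxide (chromosome 2, 152105516 to 152111376), had 570.2, 576 and 618 CPM in piceatannol libraries, against 121, 124 and 117 CPM in control libraries. The groups lay far apart, a 4.87-fold rise (log2 fold change 2.28 ± 0.06, SE; adjusted p = 2.29e-17, edgeR). Prdx1, the abundant cytosolic peroxiredoxin (chromosome 4, 116685544 to 116700822), had 2163, 2071 and 2078 CPM in piceatannol libraries, against 709, 696 and 684 CPM in control libraries. With piceatannol it had the highest FPKM of the 46 genes, 698, 673 and 671, and in control, at 233, 229 and 224, it ranked 3. Copies of Prdx1 up to 98.3% alike, Gm21399 and Gm7204, held at most 53 counts in any library.

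Prdx6, the 1-cysteine peroxiredoxin that also acts on phospholipids, rose 4.01-fold, with 831, 868 and 861 CPM in piceatannol libraries, against 207, 211 and 219 CPM in control libraries. Prdx2, the cytosolic relative of Prdx1, went the other way, with 83.5, 82 and 86.2 CPM in piceatannol libraries, against 184, 184 and 179 CPM in control libraries, a 2.17-fold fall. Exons of Prdx2 overlap those of Junb on the opposite strand, which stood at 1004, 1059 and 1019.5 CPM in piceatannol libraries, against 403, 409.8 and 399.6 CPM in control libraries. Junb rose while Prdx2 fell, and how reads in that overlap were assigned was not tested. The cytosolic peroxiredoxins thus diverged, with log2 fold changes of 2.0, 1.60 and -1.12.

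Prdx3, the mitochondrial peroxiredoxin, fell 1.53-fold, with 45.7, 46.6 and 42.2 CPM in piceatannol libraries, against 69.3, 72.2 and 64.9 CPM in control libraries. Prdx4, of the endoplasmic reticulum, fell 1.21-fold, with 53.7, 48.8 and 51.6 CPM in piceatannol libraries, against 63.1, 62.3 and 61.9 CPM in control libraries. Prdx5, found in mitochondria, peroxisomes and cytosol, did not pass, with 449, 427 and 475 CPM in piceatannol libraries, against 453, 467 and 488 CPM in control libraries. Its estimate was -0.06 ± 0.06 on the log2 scale (SE, with a 95% interval of -0.18 to 0.06 and adjusted p = 0.378, edgeR). The summed FPKM of the 6 genes was 1130 to 1157 with piceatannol and 625 to 632 in control. Within that sum Prdx1 took 58.6% to 60.4% with piceatannol and 35.7% to 37.3% in control, and Prdx5 took 17.5% to 19% with piceatannol and 33.9% to 36.2% in control. Exons of Prdx5 overlap those of Trmt112 on the opposite strand, whose log2 fold change was -0.41.

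**Figure D3:**
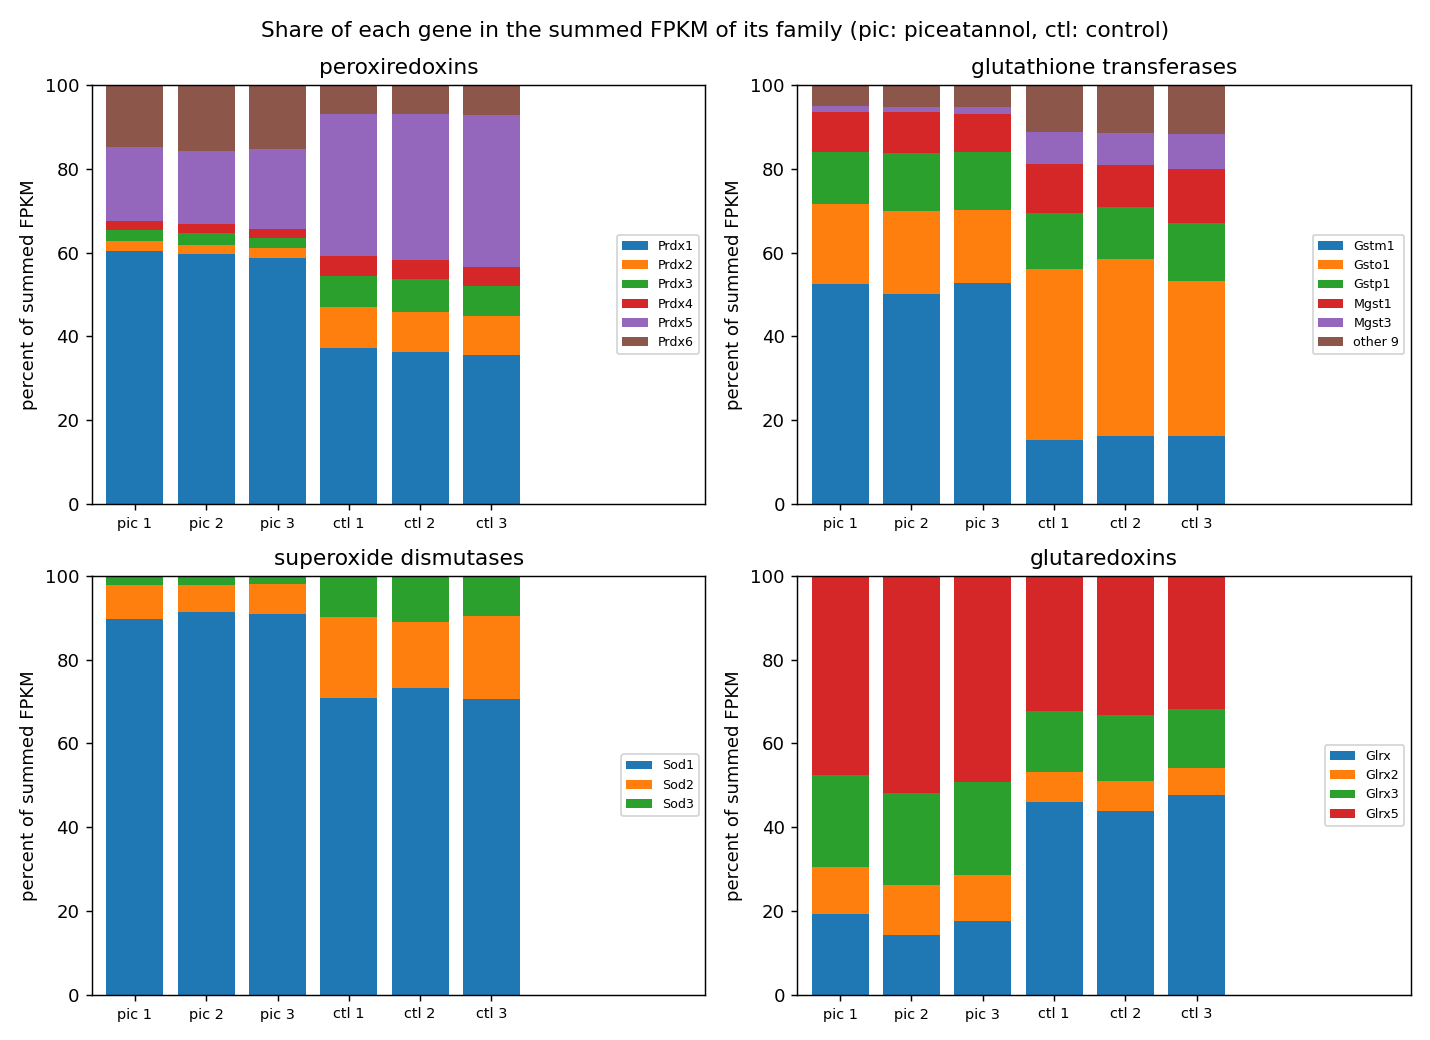
Share of each gene in the summed FPKM of its family (vertical axis, percent), 1 bar per library, with the 3 piceatannol libraries left of the 3 control libraries in each panel. Prdx1, Gstm1 and Sod1 take larger shares in piceatannol libraries, and Prdx5, Gsto1, Sod2, Sod3 and Glrx smaller ones.

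The glutaredoxins, which use glutathione to reduce disulfides or to carry iron-sulfur clusters, fell in 4 of 4 cases. By comparison, 38.3% of all genes tested fell. Glrx, the cytosolic dithiol enzyme that removes glutathione from proteins (chromosome 13, 75839868 to 75850154), had 18.4, 13.3 and 15.5 CPM in piceatannol libraries, against 93.9, 82.6 and 97.1 CPM in control libraries. This 5.79-fold fall, -2.53 ± 0.10 on the log2 scale (SE) with adjusted p = 7.37e-12 (edgeR), was the most negative of the 46. The mitochondrial gene Glrx2 fell by 1.32-fold, and Glrx5 and Glrx3, which serve iron-sulfur cluster delivery in mitochondria and cytosol, fell by 1.42-fold and 1.46-fold. Glrx5 stood at 30.1, 32 and 29.2 CPM in piceatannol libraries, against 44.3, 42 and 43.3 CPM in control libraries. Glrx2 stood at 16.6, 17.5 and 15.7 CPM in piceatannol libraries, against 23.2, 21.4 and 21.2 CPM in control libraries. Glrx3, of which the pseudogene Gm12669 is a 99.1% copy with at most 12 counts, stood at 19, 18.5 and 17.8 CPM in piceatannol libraries, against 27.3, 26.8 and 26.5 CPM in control libraries. In none of the 4 did the groups overlap, which held for 79% of all genes tested. The most abundant glutaredoxin per length was Glrx5 with piceatannol, at 8.14 ± 0.412 FPKM, and Glrx in control, at 16.6 ± 1.34 FPKM (SD, n = 3 each).

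Superoxide dismutases split by location. Sod1, the copper-zinc enzyme of the cytosol (chromosome 16, 90220754 to 90226329), rose 1.69-fold, with 155, 168 and 169 CPM in piceatannol libraries, against 93.1, 105 and 92.5 CPM in control libraries. Sod2, the manganese enzyme of mitochondria (chromosome 17, 13006846 to 13040063), fell 1.88-fold, with 83.3, 69.8 and 78.2 CPM in piceatannol libraries, against 149, 133 and 154 CPM in control libraries. A copy of Sod1, Gm8566, held at most 13 counts in any library. In neither gene did the groups overlap (adjusted p = 1.2e-09 for Sod1 and 5.25e-10 for Sod2, edgeR).

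Sod3, the secreted enzyme, fell 3.63-fold, with 22.4, 23 and 20.9 CPM in piceatannol libraries, against 75.5, 92 and 72.7 CPM in control libraries. The stromal marker sum, 612, 597 and 550.2 CPM in piceatannol libraries and 2565, 2800 and 2508 CPM in control libraries, moved the same way, and its part in the Sod3 value was not tested. Cat, the peroxisomal enzyme that splits hydrogen peroxide (chromosome 2, 103453849 to 103485160), rose 2.25-fold, with 534, 597 and 529.8 CPM in piceatannol libraries, against 245, 244 and 249 CPM in control libraries. Sod1 made up 89.6% to 91.4% of the summed dismutase FPKM with piceatannol and 70.6% to 73.2% in control.

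The quinone reductases moved in opposite directions. Nqo1, which reduces quinones with NADH or NADPH and is a classic NRF2 target, had 30, 37.1 and 34.2 CPM in piceatannol libraries, against 14.6, 12.5 and 13.1 CPM in control libraries, a rise of 2.51-fold. Nqo2, which uses dihydronicotinamide riboside in place of NADH and binds resveratrol, had 19.6, 15.3 and 18.2 CPM in piceatannol libraries, against 37.5, 34.2 and 37.9 CPM in control libraries, a fall of 2.06-fold. Neither pair of groups overlapped (adjusted p = 4.07e-11 for Nqo1 and 1.11e-09 for Nqo2, edgeR). Per length Nqo1 stood at 21.4 ± 2.33 FPKM with piceatannol and 8.63 ± 0.681 in control, and Nqo2 at 4.31 ± 0.519 and 9.04 ± 0.488 (SD, n = 3 each). With piceatannol Nqo1 was the higher of the pair, and in control they did not differ beyond their spread. Exons of Nqo2 overlap those of Serpinb6a on the opposite strand, which stood at 253, 235 and 224 CPM in piceatannol libraries, against 88.2, 88 and 87.9 CPM in control libraries, and its part in the Nqo2 values was not tested.

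By the textbook location of their products, 27 of the 46 genes were placed in a compartment. The 11 placed in the cytosol were Gclc, Gclm, Gss, Txn1, Txnrd1, Prdx1, Prdx2, Prdx6, Srxn1, Sod1 and Glrx, of which 9 rose and 2, Prdx2 and Glrx, fell, with a median of 1.60 on the log2 scale. The 8 placed in mitochondria were Txn2, Txnrd2, Prdx3, Prdx5, Glrx2, Glrx5, Sod2 and Gstk1, of which 0 rose, 7 fell and 1, Prdx5, did not pass, with a median of -0.65. Over all genes tested 38.8% rose and 38.3% fell, and the median was 0.01. The placing was made with results known, and it left out other genes with cytosolic products: with Glrx3 and Nqo2, which fell, the cytosol counted 9 rises and 4 falls of 13. Without Prdx5 and Gstk1, whose products are also found elsewhere, 6 of the 6 left fell, a choice also made with results known. Of the 19 genes not placed, 10 rose, 5 fell and 4 did not pass. Among those that fell was Gpx1, whose product is both cytosolic and mitochondrial, with a log2 fold change of -1.24. It had the highest FPKM of the 46 genes in control. Of 6 genes of the endoplasmic reticulum or membranes, 1 rose and 4 fell, and of 2 secreted enzymes both fell.

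Counterparts in the 2 compartments were compared as a ratio of FPKM in each library. The ratio of Txn1 to Txn2 was 33.5, 30.1 and 28.2 with piceatannol and 7.01, 6.02 and 6.55 in control. Txnrd1 to Txnrd2 gave 40.5, 51.6 and 34.6 with piceatannol and 8.86, 8.53 and 8.56 in control. For Prdx1 to Prdx3 it was 23, 21.6 and 23.9 with piceatannol and 4.97, 4.68 and 5.12 in control. All of these ratios were higher with piceatannol, in every library. Sod1 to Sod2 followed, with 11, 14.2 and 12.8 with piceatannol and 3.70, 4.67 and 3.56 in control. The glutaredoxins went the other way, with a ratio of Glrx to Glrx2 of 1.76, 1.21 and 1.57 with piceatannol and 6.45, 6.16 and 7.32 in control. The pairs follow the placing made with results known and leave out Prdx2, which is also cytosolic. Prdx2 fell more than Prdx3, with log2 fold changes of -1.12 and -0.62, and so went against the pattern of Prdx1. Each of 6 such ratios, Prdx6 to Prdx5 included, had groups that did not overlap, for which an exact two-sided permutation test over 3 against 3 libraries gives p = 0.1, the smallest it can give (0.1 also after adjustment over the 6). The share of mitochondrially encoded counts, given above, was higher in the same libraries in which 7 of these 8 nuclear genes for mitochondrial enzymes fell. A fit without the mitochondrially encoded genes, chosen after seeing the data, again gave 20 of the 46 genes higher and 20 lower. Any part of that share beyond the scaling of counts was not tested.

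**Figure D4:**
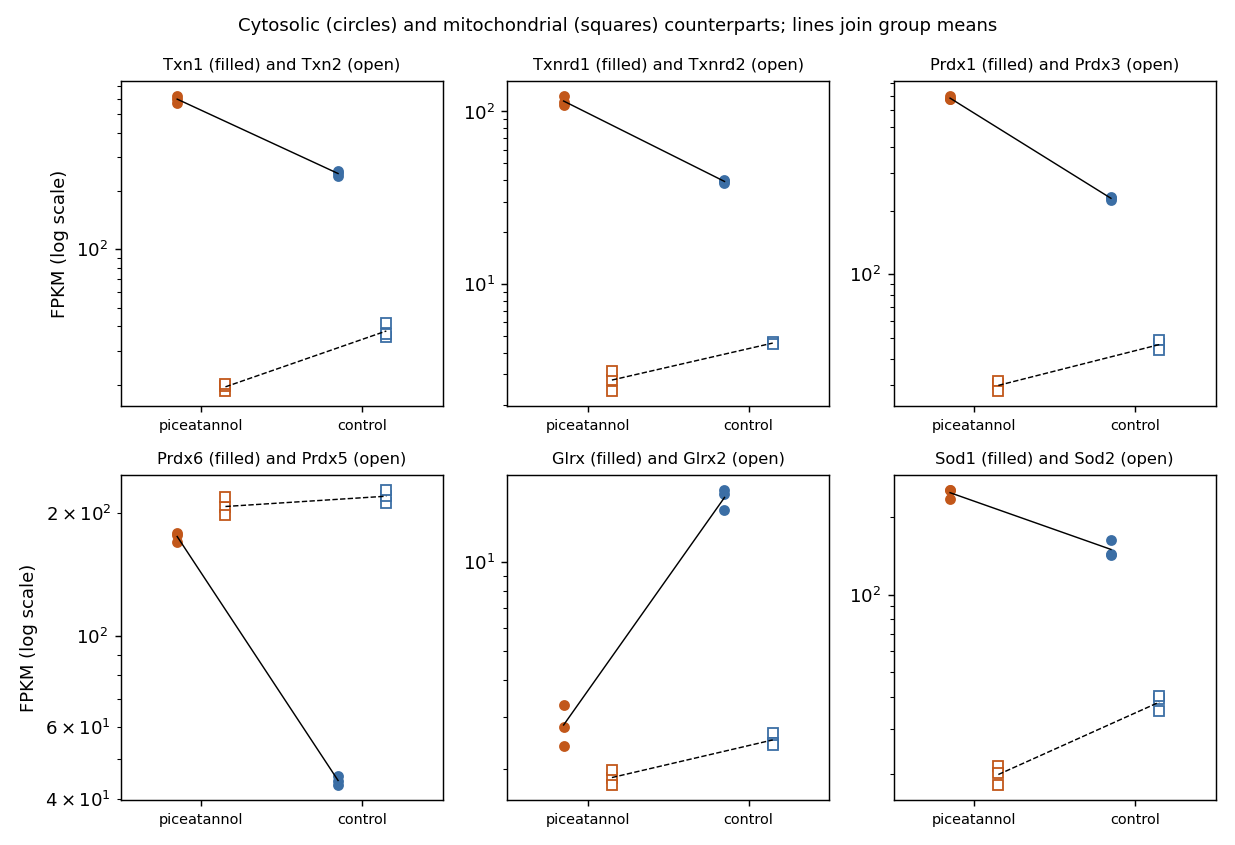
FPKM on a log scale (vertical axis) of 6 pairs of genes in each library, piceatannol left and control right in each panel; filled circles are the cytosolic gene, open squares the mitochondrial one, and lines join group means. In the pairs of Txn1, Txnrd1, Prdx1 and Sod1 the lines open towards piceatannol, and in the pair of Glrx towards control.

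Selenocysteine-containing enzymes did not share a direction. Of 6 such genes, Txnrd1 and Txnrd3 rose, Gpx1, Gpx3 and Txnrd2 fell and Gpx4 did not pass. Other selenoprotein genes and those of the selenocysteine machinery went 7 up and 9 down of 19, with a median log2 fold change of 0.06. Pstk (0.67), a kinase in selenocysteine-tRNA synthesis, and Selenoi (0.59) rose, and Selenoh (-1.49) and Selenot (-1.02) fell, as log2 fold changes.

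Genes that supply or draw on the same systems were read from lists. The background for the counts of every list was 38.8% rises and 38.3% falls over all genes tested. The list of the glutathione cycle, its transport and sulfur supply rose in 14 and fell in 8 of 24 tested cases, with a median log2 fold change of 0.43. Slc3a2, the partner chain that Slc7a11 needs at the membrane, rose 4.81-fold, with 2179, 1988 and 2194 CPM in piceatannol libraries, against 426, 450.00 and 447 CPM in control libraries. Abcc5, an exporter of organic anions, rose by 2.86 on the log2 scale, while Ggt5, which cleaves extracellular glutathione conjugates, and Slc1a5, a glutamine importer, had log2 fold changes of -2.15 and -1.75. Slc7a11 and its partner chain therefore rose together, and the glutamine importer fell.

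Other thioredoxin-fold genes went 7 up and 7 down of 20, with a median of 0.00. Txnip, whose protein binds and inhibits thioredoxin, fell, with 275, 286 and 249.97 CPM in piceatannol libraries, against 609, 559 and 625 CPM in control libraries (log2 fold change -1.14). Txndc15 (-0.77) fell and Tmx4 (1.42) and Txnl1 (1.10) rose, as log2 fold changes. Methionine sulfoxide reductases, which use thioredoxin to repair oxidised methionine, were lower in 3 of 4 cases and higher in 0, with Msrb3 at -1.65 and Msrb2 at -1.28.

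Genes of NADPH supply, the electron source of both reductases, rose in 6 and fell in 9 of 15 tested cases, with a median log2 fold change of -0.43. Among them Nadk2, the mitochondrial NAD kinase (1.40), and Aldh1l2 (1.06) rose, and the folate enzymes Mthfd1 (-2.07) and Aldh1l1 (-1.86) fell. Subunits of the phagocyte oxidase, the source of superoxide in these cells, rose in 0 and fell in 6 of 8 cases, with Cybb, its membrane subunit, at 364, 339 and 281 CPM in piceatannol libraries, against 789, 674 and 781 CPM in control libraries. Rac2, the GTPase that activates the oxidase, had a log2 fold change of -1.62. Neutrophils are rich in this oxidase, and neutrophil markers, 34.9 to 42.8 CPM in sum with piceatannol and 259 to 604 CPM in control, were lower for 8 of 8 tested. Of 9 macrophage markers 7 fell, and the part of either in these falls was not tested.

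Family members outside the 46 genes went 4 up and 5 down of 14 tested, with Ptges (1.80), a prostaglandin synthase, up and Alox5ap (-1.92), needed for leukotriene synthesis, and Eef1g (-1.07) down, as log2 fold changes. Other NRF2 target genes rose in 14 and fell in 5 of 21 cases, with a median of 0.99. Hmox1, haem oxygenase, stood at 8068, 8733 and 7692 CPM in piceatannol libraries, against 188, 182 and 211 CPM in control libraries, and Sqstm1, an autophagy receptor, rose by 2.66 on the log2 scale. Trim16 (-1.05) and Akr1b3 (-0.77) fell. Called shares of these lists began at 64.3%, for the further family members, and reached 15 of 15 for NADPH supply, where 77% of all genes were called.

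The summed FPKM of the 46 genes was 3568 to 3614 with piceatannol and 2179 to 2263 in control. With piceatannol the 5 highest genes per length were Prdx1, Txn1, Gstm1, Sod1 and Cat. In control they were Gpx1, Txn1, Prdx1, Prdx5 and Sod1. Gstm1 ranked 3 with piceatannol and 12 in control, and Srxn1 ranked 7 with piceatannol and 11 in control. The neighbours in rank Prdx5 and Cat did not differ beyond their spread with piceatannol, with 207 ± 10.4 and 209 ± 15 FPKM (SD, n = 3 each).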

How the data were processed

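RNA from 3 piceatannol and 3 control libraries, made from 1 µg of total RNA with a TruSeq RNA kit per the labels' protocols, was measured. Raw counts for each gene symbol and FPKM values were deposited by the authors. STAR, featureCounts, DESeq2 and the builds mm10 and GRCm38 are named in the submitters' processing notes, and the sources used here give no annotation, version or strand setting. The deposited FPKM values were scaled between libraries by median-of-ratios size factors, since the factor linking count to FPKM over 3504 genes was 1.126 for control replicate 1 and the size factor 1.126 relative to their means.

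Counts were tested with edgeR 4.0.16 (quasi-likelihood, robust, no covariate, two-sided) after filterByExpr (minimum count 10, leaving 15380 of 52459 genes) and TMM scaling (factors 0.985 to 1.016), with p-values adjusted by Benjamini-Hochberg over the 15380 genes and called under 0.05. An SE is the log2 fold change divided by the square root of F. The 46 genes and the lists were chosen with earlier results of these data known. The rule for genes outside the 46 took the 2 highest and 2 lowest called log2 fold changes of each list at a mean log2 CPM of at least 2. Alternatives were other scaling, filters, DESeq2 1.42.0, limma 3.58.1 on voom values and on log2(FPKM + 1) or log2(FPKM + 0.1), the replicate number as a block, other thresholds and each library left out. Positions and exon overlaps are those of GENCODE M21 on GRCm38, and copies are transcripts of other genes at least 95% alike over at least 200 bases (blastn). Not every overlap is reported here. No library repeated another, since counts of same-group pairs differed with a chi-square of 9.94 to 18.2 for each degree of freedom.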

Additional observations from a re-analysis of the deposited data

How the results depend on the processing

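Of the 46 genes, 41 kept direction and side of the threshold under every alternative computed gene by gene, which leaves out the 2-fold rule, and 0 reversed. Over the scalings, filters, tests and left-out libraries the number that rose ran from 19 to 21 and the number that fell from 18 to 21. The stricter filter (5 CPM or more in 3 libraries) removed Gpx7, Gsta4 and Gstt1. Calls were lost for Gpx8 without piceatannol replicate 3 and for Gstm2 without control replicate 1 or 3 and at a threshold of 0.01, and gained for Gpx4 (upper-quartile factors, stricter filter), Gstm5 (limma on both FPKM scales, adjusted p = 0.0286 and 0.028) and Gstt3 (without piceatannol replicate 3). Asking also for a 2-fold change left 9 genes lower and 5234 of all genes, by construction. Leaving out 1 library each gave 19 to 20 genes higher, 20 genes lower and 11487 to 11880 of all genes. With the replicate block 20 rose, 20 fell and 12012 of all genes changed. Deviations of same-numbered libraries correlated by only 0.0369 to 0.0696, though each of 6 libraries correlated best with its own number. These 6 matches are not independent, since deviations were taken from group means, and their rate by chance was not computed. They come from the data and not the design. Chosen after seeing the data, scaling by library totals and leaving out mitochondrially encoded genes each gave 20 higher and 20 lower. Depth limits Gsta4, Gpx7 and Gstt1.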
